A study of Arabidopsis thaliana with 6 samples.

Results

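*WRKY6*, *WRKY22* and *WRKY53* are 3 transcription factor genes of *Arabidopsis* that are known from early immune signalling. They were taken as the genes of these names that have a probe set paired with 1 gene only, which gave 3 genes with 1 probe set each, of 13356 genes named in this way among 22746 probe sets. The treated group was whole seedlings of the Col-0 ecotype, 14 days old, that had received the chitin tetramer (4mer) in water at 100 µg/mL for 30 min. The mock group was seedlings of the same ecotype and age that had received an equal amount of water. Both groups had grown in shaken flasks of liquid medium, with many seedlings to a flask, and each has 3 independent biological replicates, every one read on 1 Affymetrix ATH1 array, so that the number of arrays limits the precision. Longer chitin oligomers were not analysed here. Every array is an extract of whole seedlings, in which more RNA per cell and more cells that express a gene cannot be told apart.

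WRKY proteins bind DNA through a domain named after the amino acids at its start, and most of them recognize the W box, a short motif that is frequent in the promoters of defense genes, their own included. Chitin of fungal walls is perceived at the plasma membrane by receptors with LysM domains, and the signal passes through receptor-like cytoplasmic kinases, calcium and mitogen-activated protein kinase cascades to such factors. WRKY transcripts are among those that plants accumulate within minutes of contact with a microbial pattern. *WRKY22* (AT4G01250, chromosome 4) encodes a factor placed downstream of the kinase cascade that the flagellin receptor starts. *WRKY53* (AT4G23810, chromosome 4) encodes a factor of defense and leaf senescence that interacts with the kinase MEKK1. *WRKY6* (AT1G62300, chromosome 1) encodes a factor of senescence and defense that also represses the phosphate exporter gene *PHO1*.

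All 3 genes were higher with the 4mer, by 1.62-fold for *WRKY6*, 1.59-fold for *WRKY53* and 1.49-fold for *WRKY22*, and in each of them every 4mer array lay above every mock array. Among all probe sets, 47.7% were higher, and 7.86% had every 4mer array above every mock array. None of the 3 genes passed the test over all probe sets. With the Benjamini-Hochberg adjustment of limma at 0.05, 0 of the 3 genes were called, against 0.0659% of all probe sets called higher. At an unadjusted p under 0.05 the count was 3 of 3, where 4.54% of all probe sets were higher. The 3 genes were chosen with earlier results of these data known, so this count is a description and not a test of the set. The SAM statistic, the test that the methods name, called 0 of the 3, but it called 0.00% of all probe sets higher and thus sets none of them apart. Levels are given below as multiples of the median signal of the array, and they are compared between arrays for one gene and not between genes.

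For *WRKY6*, the deposited signals were 248.3, 343.2 and 288.1 on 4mer arrays 1, 2 and 3, and 164.2, 198.5 and 164.1 on mock arrays 1, 2 and 3. Divided by the array medians, the levels were 1.204, 1.62 and 1.40 with the 4mer and 0.830, 0.973 and 0.796 in mock. The groups did not overlap, with 4mer array 2 the highest of the 6 and mock arrays 1 and 3 close together at the low end. The mean level was 1.41 ± 0.21 with the 4mer and 0.866 ± 0.094 in mock (SD, n = 3 each). The log2 fold change was 0.69 with a standard error of 0.15 and a 95% confidence interval from 0.35 to 1.04 (limma, adjusted p = 0.163). Of all probe sets, 4.65% had a larger log2 fold change.

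*WRKY22* was the gene whose mock arrays lay closest together. Its levels were 1.48, 1.46 and 1.16 on 4mer arrays 1, 2 and 3, and 0.912, 0.920 and 0.898 on mock arrays 1, 2 and 3. The highest mock level was 1.02 times the lowest, while the highest 4mer level was 1.27 times the lowest. The lowest 4mer level was that of array 3, which was still above all mock arrays, by 0.34 on the log2 scale. The means were 1.37 ± 0.18 with the 4mer and 0.910 ± 0.011 in mock (SD, n = 3 each). The log2 fold change was 0.58 with a standard error of 0.13 and a 95% confidence interval from 0.28 to 0.88 (limma, adjusted p = 0.176). A log2 fold change larger than this was found in 6.32% of all probe sets.

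*WRKY53* had the widest spread of the 3 genes in relation to its change. Its levels were 1.05, 1.25 and 0.912 on 4mer arrays 1, 2 and 3, and 0.786, 0.651 and 0.586 on mock arrays 1, 2 and 3. The groups did not overlap, but 4mer array 3 and mock array 1 were only 0.21 apart on the log2 scale. The means were 1.07 ± 0.17 with the 4mer and 0.674 ± 0.102 in mock (SD, n = 3 each). The log2 fold change was 0.67 with a standard error of 0.18 and a 95% confidence interval from 0.26 to 1.07 (limma, adjusted p = 0.239), and 4.99% of all probe sets had a larger one.

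**Figure D1:**
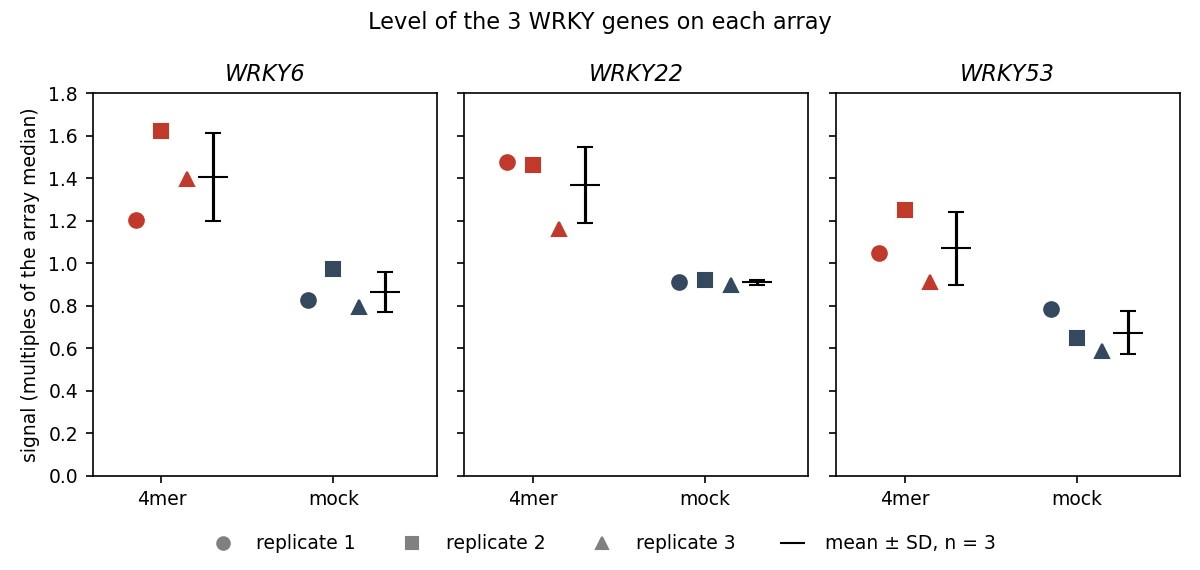
Signal of *WRKY6*, *WRKY22* and *WRKY53*, as multiples of the array median, on each 4mer array (left in each panel) and each mock array (right), with the mean and SD of 3 arrays beside the points. In every panel all 4mer points lie above all mock points, and the mock points of *WRKY22* lie between 0.898 and 0.920.

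Divided by the median of the 3 mock arrays, as the methods describe, the 4mer arrays 1, 2 and 3 stood at 1.45, 1.95 and 1.68 for *WRKY6*. For *WRKY22* these ratios were 1.62, 1.61 and 1.28, and for *WRKY53* they were 1.61, 1.92 and 1.40. Array 2 had the highest ratio for *WRKY6* and *WRKY53*, and array 3 the lowest for *WRKY22* and *WRKY53*. In an exact permutation test of the log2 levels, each of the 3 genes gave a two-sided p of 0.1, which is the smallest p that 3 arrays against 3 allow. Separation of the groups in this direction was found in 7.86% of all probe sets, and 6.23% were at least 1.5-fold higher by the log2 fold change of limma. By that measure *WRKY6* and *WRKY53* exceeded this fold, and *WRKY22*, at 1.49-fold, fell just short of it. As ratios to the mock median, 4mer arrays 1 and 2 of *WRKY22* were above it and array 3 was below it. Among the 6859 probe sets with a mean level between 0.5 and 2, the range in which the 3 genes lie, 9.40% were separated in this direction and 2.33% were at least 1.5-fold higher.

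**Figure D2:**
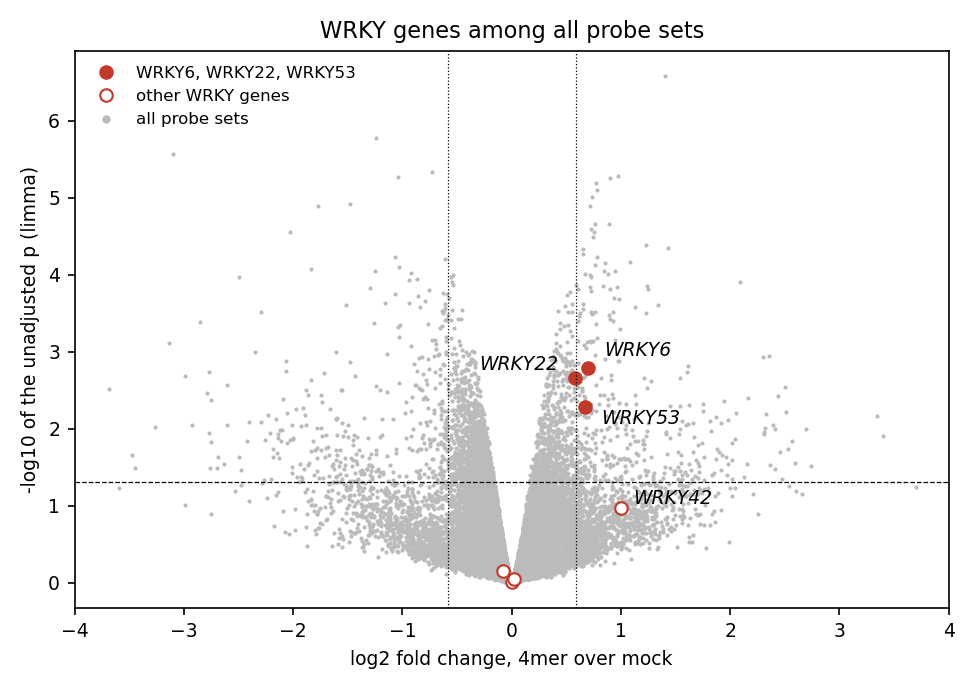
Log2 fold change of the 4mer over mock (horizontal axis) and -log10 of the unadjusted p from limma (vertical axis) for all probe sets in grey, with the 3 genes as filled and the other 4 WRKY genes as open circles. The dotted lines stand at a 1.5-fold difference, the dashed line stands at an unadjusted p of 0.05, and 1 probe set lies outside the axis at 4. *WRKY6*, *WRKY22* and *WRKY53* lie close together at log2 fold changes of 0.58 to 0.69.

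The mock array 1 stands apart from the other arrays. Over the probe sets with a mean level of at least 0.5, its log2 levels correlate with those of each other array at 0.952 to 0.960, while the pairs without it have correlations of 0.984 to 0.993. Without it, the log2 fold changes were 0.67 for *WRKY6*, 0.58 for *WRKY22* and 0.78 for *WRKY53*, with adjusted p-values of 0.0846, 0.0812 and 0.0659 from limma. The 3 genes thus stayed short of the threshold in a comparison in which 0.800% of all probe sets were called higher. For *WRKY53* mock array 1 was the highest mock level, and for *WRKY22* and *WRKY6* it was between the other two. Of the shoot markers, the 2 named ones are the photosynthesis genes *RCA* and *LHCB4.2*, which summed to between 91.3 and 103 on the 4mer arrays and between 85.2 and 113 on the mock arrays. The 3 named root markers, *PYK10*, *EXPA7* and *EXPA18*, summed to between 52.2 and 61.5 with the 4mer and between 51.3 and 78.6 in mock. The highest sum of both lists was that of mock array 1, and so was that of the 3 internal control genes, 92.5, where the other arrays lay between 69.6 and 76.7. The root sum is nearly all *PYK10*, and the root hair expansin genes *EXPA7* and *EXPA18* were at their lowest mock level on mock array 1. *EXPA18* was lower with the 4mer but was not called. Its levels were 1.34, 1.24 and 1.51 on 4mer arrays 1, 2 and 3, and 1.71, 1.99 and 1.82 on mock arrays 1, 2 and 3. Every 4mer array lay below every mock array, as in 12.5% of all probe sets. Its log2 fold change was -0.44 (limma, unadjusted p = 0.00495, adjusted p = 0.234). The other root markers did not share this change, with log2 fold changes of 0.18 for *EXPA7* and -0.083 for *PYK10* (limma, adjusted p = 0.838 and 0.899). The groups of both overlapped. The part of these marker values in those of the 3 WRKY genes was not tested.

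Another 4 WRKY genes are named among the probe sets, of 72 genes with a WRKY name in the gene table, and none of them was called (limma). *WRKY20* had levels of 1.74, 1.77 and 1.74 on 4mer arrays 1, 2 and 3, and 1.66, 1.86 and 1.73 on mock arrays 1, 2 and 3. Its groups overlapped, and its log2 fold change was 0.0020, with a 95% confidence interval from -0.21 to 0.21. *WRKY47*, of the same subgroup as *WRKY6*, had a mean level of 2.60 ± 0.17 with the 4mer and 2.60 ± 0.48 in mock (SD, n = 3 each), a log2 fold change of 0.017 with an interval from -0.29 to 0.33. *ZAP1*, which is also known as *WRKY1*, had a log2 fold change of -0.076 with an interval from -0.53 to 0.38. *WRKY42*, likewise of the *WRKY6* subgroup and known for the control of *PHO1*, was dim on all arrays. Its levels were 0.0558, 0.0543 and 0.147 on 4mer arrays 1, 2 and 3, and 0.0475, 0.0279 and 0.0417 on mock arrays 1, 2 and 3. The groups of *WRKY42* did not overlap, yet its log2 fold change of 1.002 had an interval from -0.27 to 2.28. This change rests in part on 4mer array 3, which had by far its highest level. The median log2 fold change of all 7 WRKY genes, 6 of them higher and 1 lower, was 0.58, against -0.014 over all probe sets. Of the 6, *WRKY20* and *WRKY47* were close to no change. This median is the value of *WRKY22* itself. It includes the 3 genes, which were chosen with earlier results of these data known, so it is a description. The median of the 4 other WRKY genes was 0.0093. The family median thus rests on the 3 genes, and also on the dim *WRKY42*, since it was 0.30 among the WRKY genes with a mean level of at least 0.5.

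The change of *WRKY6*, *WRKY22* and *WRKY53* was also set against the other WRKY genes within each array, where a factor common to the array cancels. *WRKY42* was left out here because it was dim, and these 12 pairs were chosen after the values had been seen. The log2 ratio of *WRKY6* to *WRKY20* was -0.53, -0.12 and -0.32 on 4mer arrays 1, 2 and 3, and -0.997, -0.93 and -1.12 on mock arrays 1, 2 and 3. The ratio was thus higher by 0.69 with the 4mer and its groups did not overlap. For *WRKY22* and *WRKY53* over *WRKY20* the shifts were 0.58 and 0.66, again without overlap. Over *WRKY47* the shifts were 0.68 for *WRKY6*, 0.56 for *WRKY22* and 0.65 for *WRKY53*, each without overlap. Over *ZAP1* they were 0.77, 0.66 and 0.74 in the same order of genes, and there the groups overlapped for *WRKY22* and *WRKY53*, where mock array 1 lay above the lowest 4mer array. These 9 ratios, of which 7 separated the groups, share genes, and because *WRKY20* and *WRKY47* differed little in mean between the groups, the shifts mostly restate the log2 fold changes of the 3 genes. They are given as a description, without a test. Among the 3 genes themselves the ratios moved little. The shift was 0.028 for *WRKY6* over *WRKY53* (exact permutation p = 0.9), 0.11 for *WRKY6* over *WRKY22* (exact permutation p = 0.6) and 0.087 for *WRKY53* over *WRKY22* (exact permutation p = 0.7), all two-sided and with adjusted values of 0.9, 0.9 and 0.9 over these 3 pairs. No difference in response between the 3 genes was detectable with 3 arrays per group, in which the SD of these ratios was between 0.13 and 0.29 on the log2 scale.

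**Figure D3:**
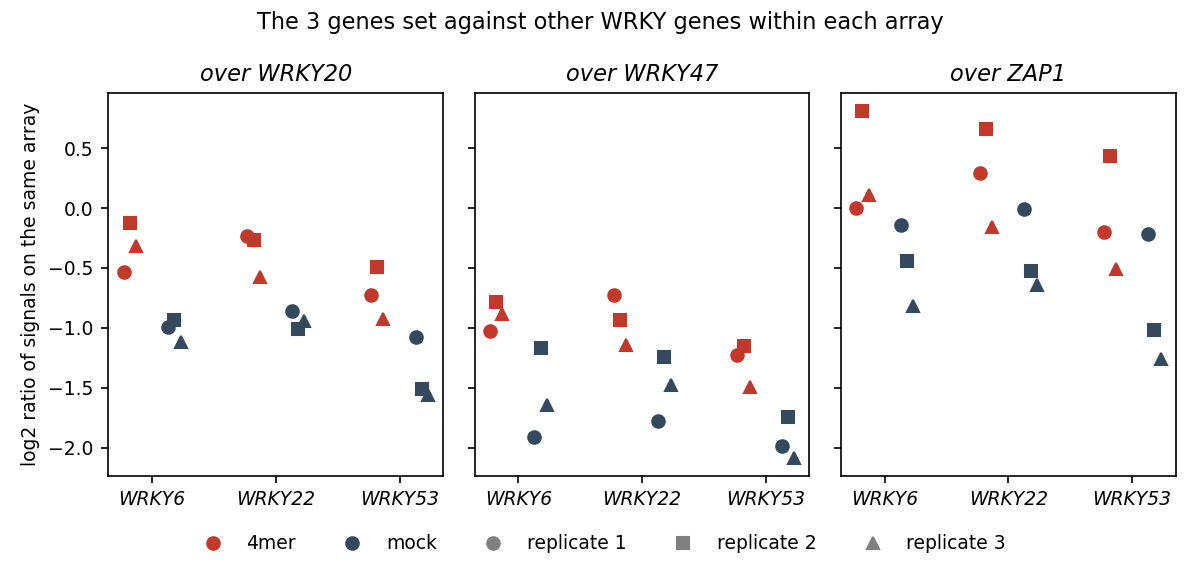
Log2 ratio of the signal of *WRKY6*, *WRKY22* or *WRKY53* to that of *WRKY20*, *WRKY47* or *ZAP1* on the same array, with 4mer arrays left of mock arrays for each gene and a symbol for each replicate. The heights of different ratios are not comparable, since they depend on the probes, and the gap between the 4mer and the mock points is what can be read. The groups are separated in 7 of the 9 ratios, the exceptions being *WRKY22* and *WRKY53* over *ZAP1*.

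Of 42 listed genes of the signalling steps that lead to WRKY factors or restrain them, 6 are named among the probe sets. All 6 had a log2 fold change above 0 and 2 had every 4mer array above every mock array, against 47.7% and 7.86% of all probe sets. None was called by limma, where 0.0659% of all probe sets were called higher. At an unadjusted p under 0.05, 1 of the 6 was higher, against 4.54% of all probe sets. The median log2 fold change of the 6 was 0.31, or 0.26 without AT5G18610, which was close to no signal. The gene with the small p is *PUB23*, which encodes a U-box ubiquitin ligase that dampens immune signalling. *PUB23* had levels of 1.82, 2.203 and 1.92 on 4mer arrays 1, 2 and 3, and 1.06, 1.40 and 1.26 on mock arrays 1, 2 and 3, which gave a log2 fold change of 0.68 (limma, adjusted p = 0.136). The related ligase genes *PUB22* and *PUB24* had log2 fold changes of 0.37 and 0.26, with adjusted p-values of 0.476 and 0.496. *BIK1*, a cytoplasmic kinase that links pattern receptors to the oxidative burst, had a mean level of 4.62 ± 0.58 with the 4mer and 4.18 ± 0.19 in mock (SD, n = 3 each), with an adjusted p of 0.635 for a log2 fold change of 0.14. The other 2 genes, named to complete the list, *EFR*, the receptor of a bacterial elongation factor, and AT5G18610, also named *PBL27*, whose product is a kinase of chitin signalling, did not separate the groups. *EFR* had a mean level of 0.362 ± 0.061 with the 4mer and 0.363 ± 0.168 in mock, and AT5G18610 one of 0.0145 ± 0.0064 with the 4mer and 0.0095 ± 0.0026 in mock (SD, n = 3 each). The change of *EFR* was thus above 0 only as a mean of log2 levels, where it was 0.084. The LysM receptor genes and the mitogen-activated protein kinase genes of the list are not named among the probe sets and were not analysed here.

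Of 25 listed early response genes outside the family, 3 are named. All 3 had every 4mer array above every mock array, as in 7.86% of all probe sets. Like the other lists, this list was written with earlier results of these data known. *STZ*, which encodes a zinc finger repressor of transcription, rose (limma, adjusted p = 0.0218), with a log2 fold change of 0.74. This call was kept under 5 of 14 alternatives and lost under 9, among them the omission of any 1 array other than mock array 1 (adjusted p = 0.107 to 0.171). The fits without 1 of those arrays called at most 1 probe set higher. SAM, the block on the replicate number and the fit without the variance trend called 0. The loss there was thus not particular to *STZ*. The standard error of *STZ* was 0.076, where those of the 3 WRKY genes lay between 0.13 and 0.18. *CML38* and *CML37*, which encode calmodulin-like calcium sensors, had log2 fold changes of 0.39 and 0.87 (adjusted p = 0.203 and 0.373). *CML37* was dim, at 0.199 ± 0.014 with the 4mer and 0.110 ± 0.021 in mock (SD, n = 3 each), so that a floor of 0.25 leaves no difference. Of 28 genes listed as downstream of these factors or as immune markers, 2 are named. *SAG101*, which encodes a partner of the immune regulator EDS1, had levels of 0.774, 0.824 and 0.982 on 4mer arrays 1, 2 and 3, and 0.352, 0.736 and 0.819 on mock arrays 1, 2 and 3, with overlap between the groups (log2 fold change 0.52, adjusted p = 0.560). *PDF1.2*, a defensin gene that jasmonate and ethylene induce, was at 0.209, 0.249 and 0.211 with the 4mer and at 0.489, 0.347 and 0.350 in mock. Its log2 fold change was -0.81 (adjusted p = 0.309), opposite in sign to those of the 3 WRKY genes, with every 4mer array below every mock array, as in 12.5% of all probe sets. *PDF1.2* was dim too, with all its 4mer levels under the floor of 0.25 and all its mock levels above it.

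**Figure D4:**
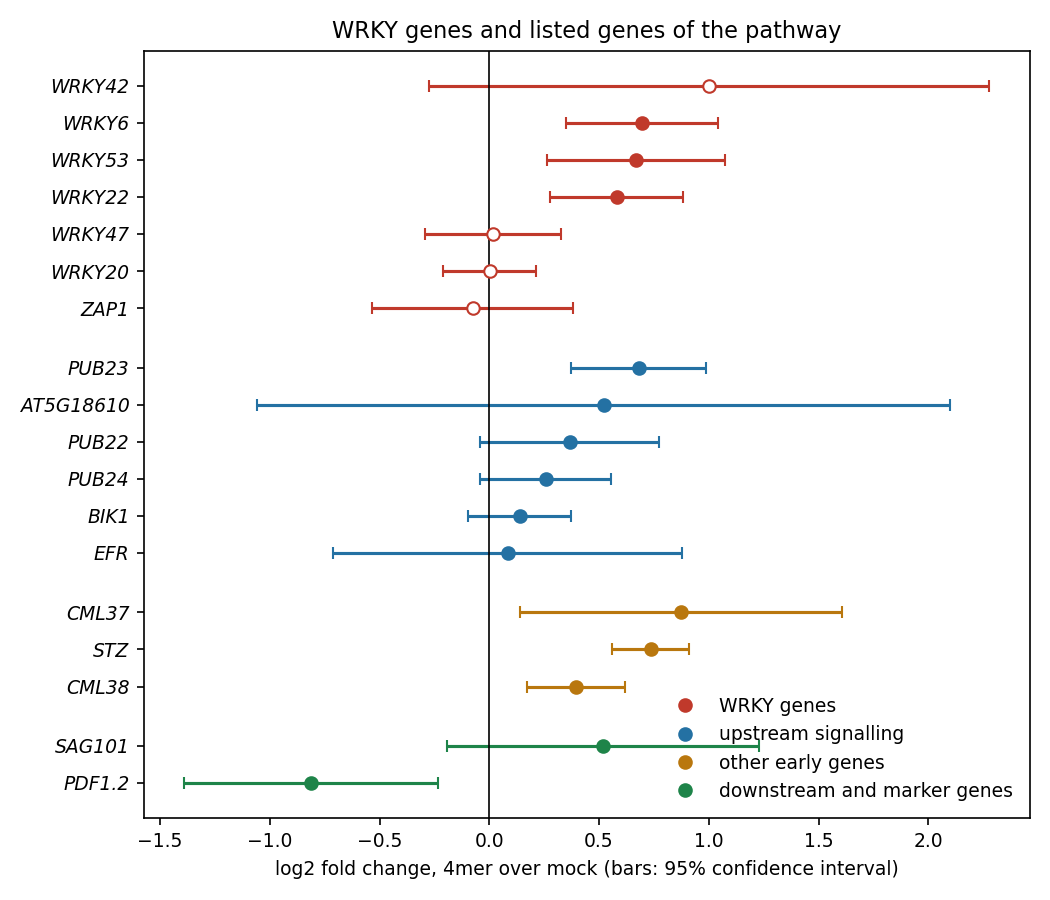
Log2 fold change of the 4mer over mock with its 95% confidence interval from limma for the 7 WRKY genes (filled for *WRKY6*, *WRKY22* and *WRKY53*, open for the others), 6 genes of upstream signalling, 3 other early response genes and 2 downstream or marker genes. The intervals of *WRKY6*, *WRKY22*, *WRKY53*, *PUB23*, *CML37*, *STZ* and *CML38* lie above 0, that of *PDF1.2* lies below it, and all others include it.

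The 3 genes were also compared with each other and with other genes by their pattern over the 6 arrays, as Pearson's r of log2 levels among the named probe sets with a mean level of at least 0.5. These r include the difference between the groups, and all of them share the same 6 arrays. *WRKY53* and *WRKY22* had an r of 0.93, *WRKY53* and *WRKY6* one of 0.87, and *WRKY22* and *WRKY6* one of 0.86. Against 7840 other probe sets, *WRKY22* ranked 49 in likeness to *WRKY53*, and *WRKY6* ranked 107. An r over 0.9 was found with 73 probe sets for *WRKY53*, 88 for *WRKY22* and 84 for *WRKY6*, or 0.931%, 1.12% and 1.07% of those compared. The other 2 genes were thus not the nearest ones to any of the 3.

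The probe sets most like *WRKY6* were those of *YUC2*, a flavin monooxygenase gene of auxin synthesis (r = 0.996), AT4G16870, which the gene table lists as a pseudogene (0.992), AT3G07350 (0.973), AT5G39580 (0.972) and AT3G09830 (0.970). Their log2 fold changes were 0.23 for *YUC2*, 0.29 for AT4G16870, 0.55 for AT3G07350, 0.65 for AT5G39580 and 0.63 for AT3G09830. For *WRKY22* they were AT4G19450 (r = 0.980), AT1G05575 (0.980), AT2G20670 (0.978), AT4G23870 (0.977) and *TRM26* (0.975). AT1G05575 passed the test over all probe sets, with a mean level of 3.58 with the 4mer and 2.11 in mock and a log2 fold change of 0.76 (limma, adjusted p = 0.0330), a call that was kept under 5 of 14 alternatives and lost under 9, among them the omission of any 1 array other than mock array 1 (adjusted p = 0.124 to 0.230). As for *STZ*, the fits without 1 of those arrays called at most 1 probe set higher, so this loss was not particular to AT1G05575. For *WRKY53* the probe sets most like it were AT1G64590 (r = 0.980), AT2G22880 (0.979), AT1G18170 (0.977), AT5G63130 (0.976) and AT2G48080 (0.975). Of these, AT2G22880 had the largest log2 fold change, 0.99, with mean levels of 1.14 with the 4mer and 0.575 in mock (limma, adjusted p = 0.152). The likeness follows the shape over the arrays and not the size, since *YUC2* changed by less than *WRKY6*, which it matched most closely.

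**Figure D5:**
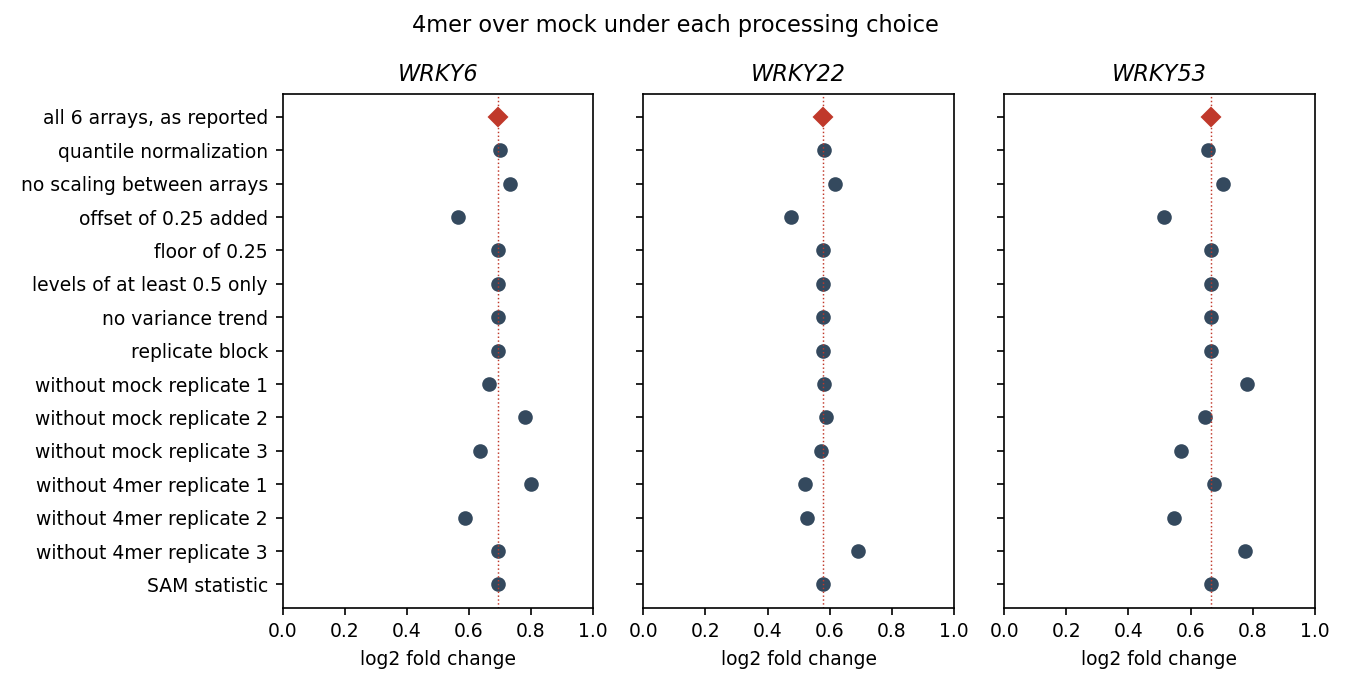
Log2 fold change of the 4mer over mock for *WRKY6*, *WRKY22* and *WRKY53* under each processing choice, with the reported value as a diamond and a dotted line. All values lie between 0.47 and 0.80 on the side of a higher level with the 4mer, and the lowest of each gene is that with an offset of 0.25 array medians.

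Over 14 other choices of processing, test or arrays, the log2 fold change ran from 0.57 to 0.80 for *WRKY6*, from 0.47 to 0.69 for *WRKY22* and from 0.51 to 0.78 for *WRKY53*. The unadjusted p of each gene stayed under 0.05 in each of the 13 limma fits, with a highest value of 0.0089 for *WRKY6*, 0.0130 for *WRKY22* and 0.0262 for *WRKY53*. No choice brought an adjusted p of any of the 3 under 0.05, but several of these choices called 0 of all probe sets higher.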

How the data were processed

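Per the methods, the authors hybridized labelled RNA of 6 samples to ATH1 arrays and used MicroArray Suite 5.0 to summarise each probe set. The deposited table holds the resulting intensity, not on a log scale, and its mean after trimming 2% at each end was 497 on every array. The scaling target and detection calls are not given in the sources used here. The authors' division by the array median and by the control samples is not in the deposited values.

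A floor of 0.01 was applied to the signals, which were divided by the array median and taken to log2. The groups were compared with limma 3.58.1 under R 4.3.3 (lmFit, eBayes with a trend) over all probe sets, without covariates, with Benjamini-Hochberg adjustment. SAM, which the methods name without a threshold, was computed with all 20 label arrangements as an alternative. Exact permutation tests used scipy 1.17.1. The code was tested on simulated data.

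Probe sets were named through the platform annotation: 13513 pair with 1 gene, 503 with several and 8730 are not listed, and 13436 matched the TAIR10.1 gene table. The genes named are the 3 members, all measured WRKY genes, the 4 smallest p of each other list and the 5 closest patterns per member. *EFR*, AT5G18610 and the neighbouring genes were named in addition, after their values had been seen. Members and lists were chosen with earlier results of these data known.

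From a list of internal controls, the named genes were *PEX4*, *TUB6* and *GAPC2*, with log2 fold changes of -0.16, 0.033 and -0.063. The alternatives were quantile normalization, no scaling, an offset or floor of 0.25, a minimum mean level of 0.5, a fit without the variance trend, a block on the replicate number, SAM, and leaving out each array.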

Additional observations from a re-analysis of the deposited data

How the results depend on the processing

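The calls of *WRKY6*, *WRKY22* and *WRKY53* were the same under all 14 alternatives, short of the threshold and higher with the 4mer, with adjusted p-values from 0.0659 (*WRKY53* without mock replicate 1) to 0.598 (*WRKY53* without 4mer replicate 1). Several alternatives, among them SAM, the replicate block and the omission of any 1 4mer array, called 0 probe sets higher. Falling short of the threshold there sets none of the 3 genes apart. The count of WRKY genes higher at an unadjusted p under 0.05 was 3 in every limma fit. The median log2 fold change of the 7 WRKY genes was 0.58, and 0.20 with an offset of 0.25, 0.017 with a floor of 0.25, which sets *WRKY42* to the floor on every array, and 0.30 among probe sets with a mean of at least 0.5, a filter that removes *WRKY42*.

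Over all probe sets, 15 were called higher and 8 lower with the 4mer. The counts were 5 and 5 with a floor of 0.25, 37 and 22 with a minimum mean of 0.5, 0 and 2 without a variance trend, and 0 and 3 with SAM. Leaving out 1 array gave 0 to 182 higher and 0 to 156 lower, the highest counts being those without mock replicate 1. The causes were not tested.

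The labels give both groups the replicate numbers 1 to 3 without saying that a number marks a shared batch. With the replicate block, 0 probe sets were called higher and 0 lower, and the adjusted p-values were 0.268 for *WRKY6*, 0.354 for *WRKY22* and 0.375 for *WRKY53*. Arrays of the same number deviated from their group means with correlations of -0.043, -0.035 and -0.034. Deviations from a mean of so few arrays are tied to each other, so these values cannot tell whether a number marks a shared batch. The dim signal of *WRKY42* and the number of arrays limit the precision.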

Other observations

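The genes beside *WRKY6*, *WRKY22* and *WRKY53* on their chromosomes are given here as values, chosen after the data had been seen. Within 5 protein-coding genes on either side, 16 neighbours are named among the probe sets, and 2 of them, or 12.5%, had an unadjusted p under 0.05, close to the 11.4% of all probe sets. Next to *WRKY6*, AT1G62290 had a mean level of 5.60 with the 4mer and 4.86 in mock, a log2 fold change of 0.21 (limma, adjusted p = 0.419). Every 4mer array of AT1G62290 lay above every mock array, as in 7.86% of all probe sets, but by only 0.020 on the log2 scale. In the fifth place after *WRKY53*, AT4G23870, also among the patterns closest to *WRKY22*, had a mean level of 1.90 with the 4mer and 1.37 in mock, a log2 fold change of 0.47 (limma, adjusted p = 0.167). Next to *WRKY22*, AT4G01240 was dim, with mean levels of 0.317 with the 4mer and 0.162 in mock, and its groups overlapped.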
